A study of Homo sapiens with 19 samples.

Results

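EZH2-/- H1 cells were compared with wild-type (WT) H1 cells in 4 of the 19 RNA-seq samples of the series, 2 of each line. H1 is an established human embryonic stem cell (hESC) line. The EZH2-/- line was made from it with CRISPR/Cas9 and a donor carrying a LoxP-flanked antibiotic cassette, which removed a functional domain of EZH2, and WT H1 cells carry no edit. Both lines were grown in a defined medium for undifferentiated hESCs and received no treatment. The study's methods mention more than 1 homozygous clone per targeted gene, and the 2 EZH2-/- samples carry different names, but the labels do not say which clone, passage or culture each was. The p-values measure only the spread between these samples, which may be technical. EZH1-/- H1 cells and EZH2-/-/EZH1-/- H1 cells, in which EZH1 was also deleted, are shown beside them. EED-/- H1 and SUZ12-/- H1 cells define a gene list, enter an alternative fit of 12 samples, and are given for comparison in a few places. Each of these lines had 2 samples. The study reports that EED-/-, SUZ12-/- and EZH2-/-/EZH1-/- cells lost pluripotency and differentiated spontaneously toward mesoderm and endoderm. It reports EZH1-/- and EZH2-/- cells as undifferentiated. The authors deposited relative transcript abundance (TPM) for 33382 genes per sample. TPM corrects for gene length and sums to the same total in every sample, so read depth is unknown and precision rests on the replicates. Differences are given on the log2(TPM + 1) scale, on which differences of weakly expressed genes come out too small, for the 15116 genes with at least 1 TPM in at least 2 of the 4 samples.

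EZH2 and EZH1 are alternative catalytic subunits of Polycomb repressive complex 2 (PRC2). With EED and SUZ12, they tri-methylate histone H3 on lysine 27 (H3K27me3) at the CpG-rich promoters of developmental regulators, which are thereby kept silent in hESCs. PRC1, which holds a PCGF subunit such as BMI1, is recruited in part by this mark. EZH2 is the more abundant and more active methyltransferase in dividing cells, and EZH1 can maintain part of the mark when EZH2 is missing. The comparison therefore asks which silent genes are expressed when EZH1 is the only methyltransferase left.

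EZH2-/- replicate 2 stood apart from the other 3 samples. Chromosome 20 was higher along its whole length in this sample. Over its 279 genes with at least 5 TPM in all 4 samples, the median difference from the WT mean, relative to the median of all genes of the sample, was 0.64 (1.56-fold) in replicate 2 and -0.045 (0.969-fold) in replicate 1. Other chromosomes ranged from -0.218 to 0.16 in replicate 2, and the 9 segments of 31 consecutive genes on chromosome 20 from 0.353 to 0.81. In the samples of the 4 other knockout lines, the median of chromosome 20 was between 0.022 and 0.195. Replicate 2 also had 14389 genes at 1 TPM or more against 14755 to 15078 in the other 3 samples, and ribosomal protein genes took 26.0% of its TPM against 21.06% to 21.87%. In the EZH1-/- samples this share was 25.42% and 24.55%. The correlation of replicate 2 with replicate 1 (Spearman's rho 0.946 across genes, which are not independent) was below that between the WT samples (0.963). Replicate 2 was slightly closer to the EZH1-/- samples (0.9505 and 0.9481) and the WT samples (0.9472 and 0.9465) than to replicate 1. Between the 2 EZH2-/- samples 10.7% of genes differed more than 2-fold, against 1.5% between the WT samples. The results below therefore give both EZH2-/- samples, and genes on chromosome 20 are named as such. Examples are DNMT3B, a de novo DNA methyltransferase (845.71 and 840.39 TPM in WT, 796.33 and 1268.39 in EZH2-/- cells), and COMMD7 (51.44 and 56.11, then 59.52 and 112.73), which overlapped or rested on replicate 2.

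The genes with the clearest gain in EZH2-/- H1 cells included neighbours in the genome. COMMD3, BMI1 and SPAG6 are successive protein-coding genes on chromosome 10, and NRGN lies beside VSIG2 and ESAM on chromosome 11. The distance between the nearest samples of the lines was smaller for SPAG6 and ESAM (0.788 and 0.675 on the log2 scale) than for the others. The start regions of 4 of these genes, from 250 bases before to 50 bases after the RefSeq start on GRCh38.p14, are shown because H3K27me3 is placed at CpG-rich starts, with every CG pair in capitals. A CG pair reads the same on both strands.
COMMD3, chr10:22316138-22316437, + strand: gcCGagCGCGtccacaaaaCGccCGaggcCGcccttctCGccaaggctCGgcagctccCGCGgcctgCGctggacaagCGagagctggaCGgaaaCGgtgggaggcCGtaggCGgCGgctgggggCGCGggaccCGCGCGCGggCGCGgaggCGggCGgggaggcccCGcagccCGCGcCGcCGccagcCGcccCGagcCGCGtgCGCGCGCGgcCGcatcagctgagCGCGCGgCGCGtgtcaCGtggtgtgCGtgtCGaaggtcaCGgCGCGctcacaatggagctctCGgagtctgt
BMI1, chr10:22320849-22321148, + strand: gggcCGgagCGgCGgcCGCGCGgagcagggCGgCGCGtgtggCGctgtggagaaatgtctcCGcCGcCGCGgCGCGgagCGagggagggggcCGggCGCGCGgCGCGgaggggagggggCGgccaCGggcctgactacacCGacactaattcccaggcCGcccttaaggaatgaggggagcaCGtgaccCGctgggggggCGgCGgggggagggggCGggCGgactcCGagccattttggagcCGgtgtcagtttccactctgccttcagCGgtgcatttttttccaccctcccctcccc
SPAG6, chr10:22345246-22345545, + strand: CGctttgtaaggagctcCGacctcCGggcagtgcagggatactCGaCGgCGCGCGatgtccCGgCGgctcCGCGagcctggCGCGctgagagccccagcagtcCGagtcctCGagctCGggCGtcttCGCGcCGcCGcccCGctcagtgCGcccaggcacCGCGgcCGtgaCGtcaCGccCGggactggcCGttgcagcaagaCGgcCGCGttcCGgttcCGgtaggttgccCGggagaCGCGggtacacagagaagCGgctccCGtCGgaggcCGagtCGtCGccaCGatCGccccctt
NRGN, chr11:124739692-124739991, + strand: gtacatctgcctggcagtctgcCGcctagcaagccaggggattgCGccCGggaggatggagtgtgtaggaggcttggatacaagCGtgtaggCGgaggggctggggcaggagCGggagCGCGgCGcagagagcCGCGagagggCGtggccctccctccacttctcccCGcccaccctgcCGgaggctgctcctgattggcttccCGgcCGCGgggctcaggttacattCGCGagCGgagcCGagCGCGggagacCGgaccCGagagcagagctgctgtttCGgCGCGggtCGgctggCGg
The start of COMMD3 held 53 CG pairs, a number reached by 0.63% of the 27305 start regions in the table, which had a median of 14. BMI1 had 36 pairs (reached by 12.5%), SPAG6 47 (2.4%) and NRGN 30 (22.1%). All 4 windows were thus richer in CG pairs than the median start. The genes were chosen for their gain in expression, and these RNA data hold no map of H3K27me3. Whether the mark lay at these starts was not tested. Whether genes that gain expression are CG-rich as a group was not compared, because the table held the start of 37 of the 105 most separated genes.

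COMMD3 (chr10:22316386-22320306, + strand), a subunit of a complex that sorts membrane proteins, had 1.91 and 1.47 TPM in the WT samples and 10.09 and 13.03 in the EZH2-/- samples. The log2 difference was 2.22 ± 0.298 (SE, n = 2 per line; limma, Benjamini-Hochberg adjusted p = 0.331). BMI1 (chr10:22321099-22331484, + strand), a PCGF subunit of PRC1 that represses the CDKN2A locus, had 2.12 and 2.99 TPM in WT and 34.13 and 10.59 in EZH2-/- cells, a difference of 2.52 ± 0.525 (adjusted p = 0.511). For both genes the groups were far apart, but the differences did not pass the test across all genes. COMMD3-BMI1, a read-through of the same exons, had 3.92 and 3.54 TPM in WT and 24.35 and 12.28 in EZH2-/- cells, and how the authors' estimates divided reads among these 3 overlapping genes is uncertain. SPAG6 (chr10:22345445-22454224, + strand), a component of the ciliary axoneme, was nearly absent from WT cells with 0.05 and 0.32 TPM, and had 2.17 and 1.28 TPM in EZH2-/- cells. The next protein-coding gene, PIP4K2A, a lipid kinase, overlapped between the groups with 25.6 and 27.26 TPM in WT and 27.24 and 14.56 in EZH2-/- cells. EZH1-/- cells were like WT cells here, with 2.24 and 2.67 TPM of COMMD3 and 2.37 and 3.06 of BMI1. EZH2-/-/EZH1-/- cells had 39.96 and 64.01 TPM of COMMD3, above the EZH2-/- cells by 2.05 (limma, adjusted p = 0.00988), and 45.36 and 24.72 of BMI1, a difference of 0.775 that did not pass the test (adjusted p = 0.36).

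NRGN (chr11:124739942-124747210, + strand), a calmodulin-binding protein of neurons, had 0.81 and 1.15 TPM in WT and 9.6 and 8.01 in EZH2-/- cells, a 8.99-fold higher mean TPM. The difference of 2.31 ± 0.297 did not pass the test (limma, adjusted p = 0.331), although the EZH2-/- samples differed little from each other. VSIG2 (chr11:124747474-124752255, - strand), an immunoglobulin-domain membrane protein, went from 0.1 and 0.2 TPM in WT to 2.51 and 2.31 in EZH2-/- cells. ESAM (chr11:124752583-124762290, - strand), an adhesion molecule of endothelial cells, had 0 and 0.19 TPM in WT and 0.9 and 1.28 in EZH2-/- cells. The 3 genes were low in EZH1-/- cells, in which NRGN had 0.14 and 0.33 TPM. Before NRGN, its nearest neighbour SPA17, a sperm protein, overlapped (15.07 and 14.85 TPM in WT, 24.92 and 14.03 in EZH2-/-), and the next gene, the sialic acid esterase SIAE, was higher without overlap (2.15 and 1.74, then 6.24 and 2.4). Beyond these, TBRG1 (17.53 and 20.85, then 19.38 and 15.64) overlapped, as did MSANTD2 on the side of ESAM (12.05 and 16.83, then 15.79 and 9.69). In EZH2-/-/EZH1-/- cells the neighbours parted. NRGN stayed at 7.86 and 6.65 TPM (difference from EZH2-/- of -0.247, adjusted p = 0.727), VSIG2 was at 0.7 and 1.08, and ESAM rose to 46.43 and 46.37 TPM (difference 4.51, limma, adjusted p = 0.000609).

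Across the transcriptome, no gene passed the test between the lines. With limma and Benjamini-Hochberg adjustment, 0 of 15116 genes (0.0%) had an adjusted p of at most 5%, and the smallest was 0.253. At an unadjusted p under 0.05, 363 genes were higher and 571 lower in EZH2-/- cells. With 2 samples per line the test had little reach. In simulated data with 2 samples per line, it recovered 0 of 50 genes changed by 1 on the log2 scale, 8 of 50 changed by 2, 23 of 50 changed by 3 and 40 of 50 changed by 4, on 14743 genes with 1 false call. Only genes with a mean log2(TPM + 1) above 2 were changed, so these rates do not cover silent genes. The noise was independent between genes and equally wide in both lines, without the shifts seen in EZH2-/- replicate 2. When the other lines helped to estimate the spread, RP11-536I6.2 and RAB17 passed in a fit of 6 samples, and COMMD3, NRGN, BMP7, CTD-2636A23.2, AC005786.7 and RP11-536I6.2 (higher) and RAB17, SEZ6, IFITM2, RP11-677O4.6, RP11-173P15.5 and RP11-78L16.1 (lower) in a fit of 12. Of these, AC005786.7 reached 1 TPM only in EZH2-/- samples, and RP11-677O4.6, RP11-173P15.5 and RP11-78L16.1 only in WT samples. They entered the fit only through the group where they were high. Lines listed at 0 in both samples add no spread, so the passing of these genes carries little weight.

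The further description therefore counts genes whose samples did not overlap. Both EZH2-/- samples lay above both WT samples in 2155 genes (14.3%) and below in 3497 (23.1%). This split depends on the scaling, because the median difference over all genes was -0.091. After scaling by median ratios it was -0.006 and the counts were 2811 higher and 2794 lower, so that 50.2% of the separated genes were higher instead of 38.1%. A gap of at least 1 on the log2 scale between the nearest samples of the lines was found in 59 genes (0.39%) that were higher and 46 (0.304%) that were lower. The median of the 59 was 1.69 TPM in WT, 10.05 in EZH2-/- and 7.42 in EZH1-/- cells, and that of the 46 was 6.82, 1.36 and 3.645. As groups, both sets thus lay on the same side of WT in EZH1-/- cells, and also in EZH2-/-/EZH1-/- cells (medians of 4.66 and 2.225). The genes were chosen by their distance from these WT samples, which favours such a position in any other line. Whether the single knockouts share an effect was not tested. Of the 59, 32 were protein-coding, 25 were long non-coding RNAs and 2 had no place in the annotation used. Of the 57 with a place, 13 lay within 100 kb of another of them, against 0 of the 44 placed genes that were lower. The 59 included 6 clustered metallothioneins, and COMMD3, BMI1 and their read-through (gaps of 1.93, 1.538 and 1.433). Reads may be divided with error within each of these sets. The share of such neighbours over all tested genes was not counted, so the 13 cannot be set against a background. Only 2 of the 59 and 0 of the 46 were on chromosome 20. Without replicate 2, 145 genes were higher and 127 lower by this measure, since 1 sample overlaps less easily.

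**Figure D1:**
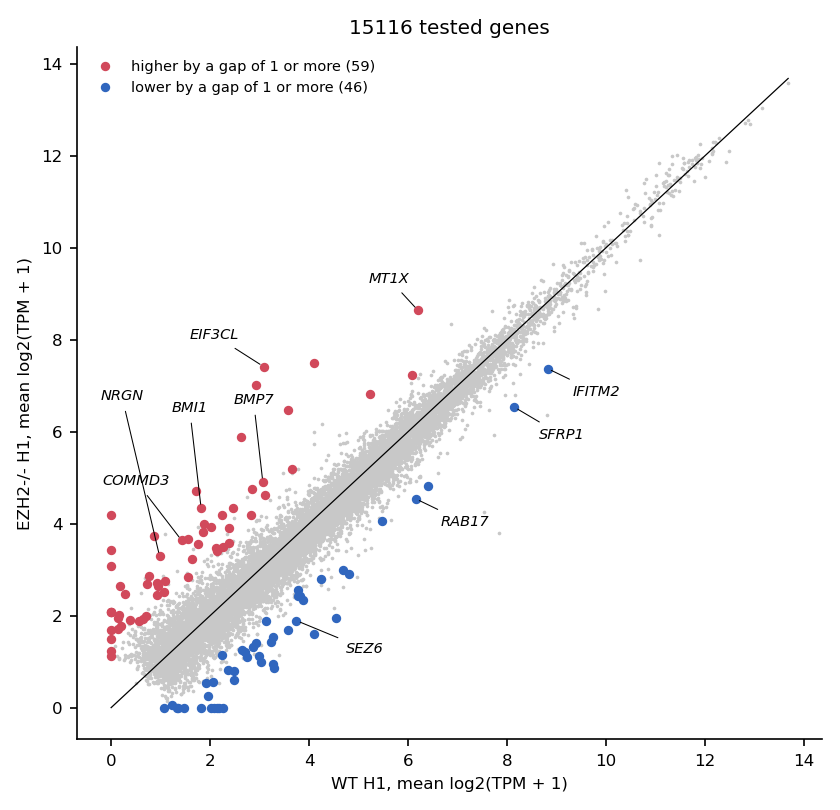
Mean log2(TPM + 1) of the 15116 tested genes in WT (x axis) and EZH2-/- (y axis) H1 cells, with the line of equal level. Coloured points are the 59 genes higher and 46 genes lower by a gap of at least 1 between the nearest samples, among them MT1X, EIF3CL, BMP7 and BMI1 above the line and IFITM2, SFRP1, RAB17 and SEZ6 below it.

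Of the 6 core PRC2 subunits, 0 were higher and 3 lower without overlap (EZH2, EZH1 and RBBP4), with a median difference of -0.334, beside 14.3% and 23.1% of all genes and a median of -0.091. EZH2 (chr7:148807257-148884321, - strand) had 54.55 and 58.89 TPM in WT and 46.94 and 22.02 in EZH2-/- cells (difference -0.80 ± 0.356, limma, adjusted p = 0.817). The gene-level TPM cannot show the deleted domain, because it counts the exons that remain, so it does not check the labels. EZH1-/- cells had 34.8 and 29.2 TPM of EZH2. EZH1, the remaining methyltransferase, was not higher in its partner's absence. Its level was 13.71 and 14.29 TPM in WT and 9.72 and 7.92 in EZH2-/- cells (difference -0.62, adjusted p = 0.806). EED (17.3 and 21.96 TPM, then 18.16 and 18.3), which binds the mark, and SUZ12 (25.21 and 27.89, then 31.24 and 11.65), which holds the complex together, overlapped. Of 8 tested accessory subunits, 2 were higher and 2 lower without overlap. C17orf96, which encodes the PRC2-associated protein EPOP, had 1.44 and 1.62 TPM in WT and 2.81 and 3.05 in EZH2-/- cells. Among 19 tested PRC1 subunits, BMI1 was the one member that lay higher, and 8 lay lower (14.3% and 23.1% of all genes), such as RNF2, the ubiquitin ligase (68.47 and 80.9, then 52.79 and 40.85 TPM) and PHC1 (698.38 and 596.06, then 529.53 and 271.48). CBX8, a reader of H3K27me3 below the filter in WT cells, had 0.69 and 0.39 TPM there and 0.93 and 2.71 in EZH2-/- cells. Of the 8 H3K27 demethylases and trithorax methyltransferases, which oppose PRC2, 0 were higher and 6 lower (14.3% and 23.1% of all genes), with a median difference of -0.397. KDM6A, for example, had 53.98 and 42.92 TPM in WT and 36.68 and 28.89 in EZH2-/- cells. None of these passed the test, and the median of all genes was itself below 0.

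Most genes that are silent in WT cells remained silent. A gene was called silent at under 1 TPM in both samples of a line. Of 18031 genes silent in WT cells, 147 (0.815%) reached 1 TPM in both EZH2-/- samples, while 172 (0.966%) of the 17798 genes silent in EZH2-/- cells had at least 1 TPM in both WT samples. The gains were thus no more frequent than the losses in TPM as deposited, but after scaling by median ratios the counts were 173 and 150. The 147 genes, of which 69 were protein-coding and 71 long non-coding, were mostly at low levels, with a median of 1.58 TPM and 105 of them under 2 TPM. A mean of 5 TPM or more over the 2 samples was reached by 8 of the 147 genes in EZH2-/- cells and by 0 of the 172 in WT cells, and 11 against 5 genes crossed from under 0.5 to at least 2 TPM. Among the 10 genes with the largest gap were VSIG2, RTP1, a chaperone of odorant receptors (0.64 and 0.67 TPM, then 6.03 and 4.95), and the non-coding CTC-458G6.4 (0.92 and 0.49, then 6.16 and 6.36). RTP1 and CTC-458G6.4 were also high in EZH1-/- cells (8.69 and 9.23 TPM, and 13.22 and 15.66). Over all 147 genes, for which a low WT level was a condition, the median was 0.57 TPM in WT, 1.58 in EZH2-/- and 1.425 in EZH1-/- cells. As a group they were thus also above WT in the other single knockout. AC005786.7 and AC009022.1 were listed at 0 in all WT, EZH1-/- and EZH2-/-/EZH1-/- samples and had 2.2 and 4.61 TPM, and 15.69 and 6.05 TPM, in EZH2-/- cells. Without chromosome 20 the counts were 144 and 168. Without replicate 2 they were 540 and 309, and without replicate 1 394 and 666, so the more frequent direction depended on which EZH2-/- sample was left out.

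Silent developmental transcription factors showed small gains. The list held 247 HOX, other homeobox, GATA, FOX, TBX, SOX, PAX and bHLH genes and members of other families, of which 213 were silent in WT cells. Both EZH2-/- samples lay above both WT samples in 37 of the 213 (17.4%) and below in 12 (5.63%). Among the 156 of them with a value above 0 in at least 1 of the 4 samples these shares were 23.7% and 7.69%. They were 14.4% and 12.3% of the 8696 silent genes of all kinds with such a value, and 16.2% and 14.0% of the 3787 that were protein-coding. The gains were small. The median of the 37, which were chosen for this direction, was 0.055 TPM in WT and 0.43 TPM in EZH2-/- cells. Of the 37, 1 had a gap of at least 0.5, and 2 reached 1 TPM in both EZH2-/- samples. With a gap of at least 0.1, 22 were higher and 4 lower. Without replicate 2 the counts were 73 and 24, and without replicate 1 67 and 35.

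TBX15, a T-box factor of skeletal development, had the largest gap, from 0.12 and 0 TPM in WT to 1.15 and 0.78 in EZH2-/- cells. LMX1B, which patterns the dorsal limb, had 0.11 and 0.12 TPM in WT and 0.55 and 0.53 in EZH2-/- cells. SIX2, a factor of nephron progenitors, had 0.95 and 0.88, then 1.64 and 2.15 TPM. The 2 EZH2-/- samples were alike for these 3 genes. IRX3, an Iroquois homeobox factor, went from 0.63 and 0.51 to 1.45 and 1.02 TPM. EZH1-/- cells had similar levels of IRX3 (1.14 and 1.18 TPM), but less TBX15 (0.04 and 0.08) and SIX2 (1.08 and 0.7) than EZH2-/- cells. The mesenchymal factor TWIST1 had 0.2 and 0.14 TPM in WT but 2.72 and 0.55 in EZH2-/- cells, so replicate 1 carried most of its gain. Of 39 HOX genes, 2 were higher, HOXC4 (0 and 0, then 0.18 and 0.28 TPM) and HOXB1 (0 and 0.06, then 0.15 and 0.76). 34 HOX genes were listed at 0 in both WT samples and 27 in both EZH2-/- samples. The HOX clusters therefore stayed near 0, with 0.06 and 0.42 TPM in sum in WT and 0.81 and 1.74 in EZH2-/- cells. SNAI2, a factor of neural crest cells, went the other way, from 0.79 and 0.76 to 0.29 and 0.15 TPM, as did PAX6, which specifies neural ectoderm (0.41 and 0.7, then 0.24 and 0.3).

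The median level of the same factors was higher where EZH1 was missing as well. The study describes the EZH2-/-/EZH1-/- cells as differentiated, so loss of EZH1 and the change of cell state cannot be told apart in these values. Over the 213 silent factors the median level was 0.035 TPM in WT, 0.055 in EZH2-/-, 0.05 in EZH1-/- and 3.25 in EZH2-/-/EZH1-/- cells. There is no test here, since most of these genes passed the filter through the double knockout alone. The 37 factors with higher EZH2-/- samples had medians of 0.43 TPM in EZH2-/-, 0.15 in EZH1-/- and 4.79 in EZH2-/-/EZH1-/- cells. They were chosen by their EZH2-/- values, which favours a higher level there than in EZH1-/- cells. TWIST1 reached 42.13 and 53.21 TPM there, FOXL1, a mesenchymal forkhead factor, 7.75 and 9.81, and TBX1 18.43 and 26.1. TBX15 had 3.57 and 4.72 TPM there. The HOX genes summed to 541.5 and 587.7 TPM.

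The same question was asked of genes expressed in EED-/- and SUZ12-/- cells, chosen without any of the 4 samples compared. The study describes both of these lines as differentiated. Genes freed by loss of PRC2 and genes of the differentiated cell types therefore cannot be told apart in the list. It held the 374 genes with under 1 TPM in both EZH1-/- samples and at least 5 TPM in all EED-/- and SUZ12-/- samples. In EZH2-/- cells 55 of them (14.7%) lay above WT and 59 (15.8%) below, and the median difference was 0. Of all 17309 genes with under 1 TPM in EZH1-/- cells, 5.36% lay above and 6.41% below. Counting only genes with a value above 0 in at least 1 of the 4 samples, the shares were 16.9% and 18.1% of 326 list genes. Among the 7999 genes with under 1 TPM in EZH1-/- cells and a value above 0 in at least 1 of the 4 samples, these shares were 11.6% and 13.9%. The list as a whole thus kept its WT level. Its median was 0.155 and 0.19 TPM in the WT samples, 0.185 and 0.16 in the EZH2-/- samples, and 17.1 and 11.9 in the EZH2-/-/EZH1-/- samples. At least 1 TPM was reached by 33 and 35 of the genes in WT, 53 and 30 in EZH2-/- and 374 and 370 in EZH2-/-/EZH1-/- cells. Without replicate 2, 132 list genes were higher and 91 lower, and without replicate 1 101 and 126. The largest gaps upward were in CTB-13F3.1, a non-coding RNA (0.37 and 0.39, then 1.31 and 2.81 TPM), FZD1, a WNT receptor (0.28 and 0.34, then 1.17 and 1.28), and ESAM and TBX15, given above. SLC22A3, an organic cation transporter, had 1.24 and 1.29, then 2.86 and 2.36 TPM. FZD1 reached 16.47 and 12.53 TPM in EZH2-/-/EZH1-/- cells. MBNL2, a splicing regulator, had the largest gap downward, from 0.84 and 2.34 to 0.07 and 0.07 TPM.

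The BMP pathway held genes that were active in WT cells and higher in EZH2-/- cells. BMPs are secreted ligands that drive mesoderm and extraembryonic fates, and ID genes are their direct targets. Of the 14 tested ligands, antagonists and ID targets, 6 lay above and 1 below WT (14.3% and 23.1% of all genes), with a median difference of 0.358 beside -0.091 for all genes. BMP7 (chr20:57168753-57266641, - strand) had 8.19 and 6.63 TPM in WT and 23.29 and 36.06 in EZH2-/- cells, a 4.0-fold higher mean (difference 1.84 ± 0.30, limma, adjusted p = 0.355). It lies on chromosome 20, but replicate 1 alone gave a difference of 1.54. BMP4 had 2.5 and 3.25 TPM in WT and 5.22 and 13.41 in EZH2-/- cells. ID1, which blocks differentiation-promoting bHLH factors and also lies on chromosome 20, had 131.6 and 102.14 TPM in WT and 233.72 and 446.37 in EZH2-/- cells. ID4 (3.0 and 3.07, then 5.06 and 5.8) followed the same direction, whereas ID2 and ID3 overlapped (34.22 and 53.07, then 54.78 and 24.53, and 153.69 and 114.33, then 100.74 and 144.17). The antagonist NOG was still under 1 TPM, at 0.17 and 0.18 in WT and 0.72 and 0.32 in EZH2-/- cells. EZH1-/- cells had 15.49 and 17.82 TPM of BMP7 and 221.06 and 217.98 of ID1, and EZH2-/-/EZH1-/- cells 69.04 and 81.73 of BMP7 and 293.44 and 121.11 of BMP4, above the EZH2-/- cells by 1.34 and 4.32 (limma, adjusted p = 0.0308 and 0.0015).

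Of 11 tested WNT ligands and modulators, 2 lay above and 3 below WT, beside 14.3% and 23.1% of all genes, with a median difference of 0.057. SFRP1 , a WNT antagonist, had 258.57 and 308.22 TPM in WT and 109.63 and 77 in EZH2-/- cells (difference -1.61 ± 0.23, limma, adjusted p = 0.331). SFRP2 had 562.98 and 434.32, then 374.8 and 255.67 TPM. WNT5B, a ligand of non-canonical signalling, had 0.55 and 0.47 TPM in WT, 1.97 and 1.79 in EZH2-/- and 3.14 and 3.03 in EZH1-/- cells.

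CDK inhibitors slow the cell cycle, and the CDKN2A locus is a known PRC2 target. Of 12 tested inhibitors and cyclins, 5 were higher and 0 lower without overlap (14.3% and 23.1% of all genes), with a median difference of 0.055, and 0 passed the test. CDKN2A had 0.44 and 0.77 TPM in WT and 2.33 and 13.93 in EZH2-/- cells (difference 2.14 ± 0.67, limma, adjusted p = 0.72), so that replicate 2 carried most of the gain. Its neighbour CDKN2B stayed under 1 TPM, at 0.13 and 0.1 in WT and 0.29 and 0.66 in EZH2-/- cells. CDKN2C was listed at 0 in both WT samples and had 0.5 and 0.29 TPM in EZH2-/- cells. CCND1, a G1 cyclin, had 45.24 and 24.91 TPM in WT and 66.99 and 57.84 in EZH2-/- cells. CDKN1A, a p53 target, did not separate, at 6.15 and 21.35, then 7.39 and 20 TPM. In EZH2-/-/EZH1-/- cells CDKN2A stood at 334.57 and 586.41 TPM and CDKN2B at 257.8 and 243.16.

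The cells kept the markers of primed hESCs. All 36 core and primed pluripotency genes were expressed in both lines, with 12050 and 12610 TPM in sum in WT and 13430 and 11710 in EZH2-/- cells. 7 lay above and 6 below WT (14.3% and 23.1% of all genes), 0 had a gap of 1, and the median difference was 0.007. POU5F1 had 2530.98 and 2428.15 TPM in WT and 3317.18 and 3456.09 in EZH2-/- cells (difference 0.45 ± 0.146, limma, adjusted p = 0.737). SOX2 (164.6 and 218.65, then 215.88 and 119.87) and NANOG (140.42 and 97.47, then 185.35 and 107.22) overlapped. The largest gaps were in PRDM14, a repressor that supports pluripotency (22.01 and 30.39, then 51.46 and 75.23), and NODAL, a ligand of the Activin pathway (12.31 and 8.16, then 19.14 and 56.82), which lay higher, and in ZIC2, a zinc-finger factor of primed cells and neural plate (143.13 and 128.44, then 83.71 and 40.24), which lay lower. In contrast, 28 of the 36 genes were lower in EZH2-/-/EZH1-/- than in EZH2-/- cells at an adjusted p of at most 5% (limma; 8.34% of the 16615 genes tested were lower and 18.4% higher), with POU5F1 at 123.06 and 149.79 TPM. Of 8 tested genes of the naive list, 4 lay above and 0 below WT (14.3% and 23.1% of all genes). These were FGF4, an autocrine growth factor (0.71 and 1.09, then 4.12 and 4.84 TPM), NLRP7 (1.18 and 0.85, then 4.56 and 2.99), KLF4 (1.42 and 1.17, then 3.19 and 2.55) and, by a narrow gap, KLF5 (1.33 and 1.24, then 2.66 and 1.36). KLF17, a marker of the naive state, was listed at 0 in all 4 samples, and DPPA5 and DPPA3, also in the list, overlapped between the lines. The 19 genes of the naive list summed to 15.29 and 15.29 TPM in WT, 25.63 and 27.03 in EZH2-/- and 24.3 and 26.43 in EZH1-/- cells. The sum was thus similarly higher in both single knockouts.

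Markers of other cell types lay on both sides of WT. In bulk RNA, fewer cells of a type and less RNA per cell cannot be told apart. Summed levels of the 12 primitive streak markers were 10.12 and 6.22 TPM in WT and 9.16 and 6.96 in EZH2-/- cells, those of the 18 endoderm and liver markers 32.49 and 36.73, then 34.68 and 35.45, and those of the 15 neural crest and surface ectoderm markers 5.38 and 6.42, then 5.68 and 7.9. The 14 fibroblast and stromal markers summed to 598 and 538.6 TPM in WT and to 411.4 and 822.9 in EZH2-/- cells, with COL1A2, a collagen chain, at 48.93 and 61.11, then 27.62 and 30.67. The 18 trophoblast and amnion markers (28.82 and 32.58, then 32.21 and 33.36) stayed close to WT, the 14 blood and endothelial markers (76.92 and 93.32, then 84.13 and 49.88) and 12 cardiac mesoderm markers (60.89 and 68.07, then 14.76 and 71.22) varied between the EZH2-/- samples, and the sum of the 21 neural ectoderm markers was 135.6 and 119.3, then 138.3 and 170.3, most of it NES, while the median difference of the 5 tested was -0.089. Of the members tested, 2 of 4 endoderm and liver, 2 of 9 fibroblast, 2 of 5 neural ectoderm, 1 of 4 primitive streak, 1 of 4 trophoblast, 1 of 2 neural crest, 0 of 4 blood and 0 of 3 cardiac markers were higher without overlap, and 1, 2, 1, 1, 1, 1, 2 and 1 were lower, beside 14.3% and 23.1% of all genes. EZH2-/-/EZH1-/- cells had 3116 and 3411 TPM of endoderm and liver markers and 12390 and 9897 of fibroblast and stromal markers. The defining markers HAND1, HAND2 and PLN were listed at 0 in all WT and EZH2-/- samples, and GATA6 had 0 and 0.03, then 0 and 0 TPM. TNNT2, a cardiac troponin that hESCs also express, was lower, at 23.5 and 26.41, then 4.39 and 10.91 TPM. Among neural ectoderm markers NES, an intermediate filament of neural progenitors, had 97.78 and 87.88, then 107.69 and 154.45 TPM. The 28 DNA replication genes, the 18 glycolysis genes and the 17 tested imprinted genes had medians of 0.025, 0.026 and 0.134. GAPDH had 7194.61 and 7866.75 TPM in WT and 5926.25 and 8282.28 in EZH2-/- cells. PKM, the last enzyme of glycolysis, had 712.66 and 730.8, then 1111.38 and 1103.12 TPM.

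Metallothioneins, small zinc-binding proteins that respond to metals, showed the largest differences of any list. Of 7 tested genes, 6 were higher, each by a gap of at least 1 (0.39% of all genes). MT1E had 15.98 and 2.39 TPM in WT and 127.99 and 129.66 in EZH2-/- cells (difference 4.10 ± 0.679, limma, adjusted p = 0.355), and MT1X 119.08 and 43.92, then 401.35 and 397.07. The WT samples differed from each other, and EZH1-/- replicate 2 had 189 TPM of MT1E where replicate 1 had 11.58, so the level also varied within lines. EZH2-/-/EZH1-/- cells had 11.66 and 11.09 TPM. The genes lie together on chromosome 16 and resemble each other in sequence, so reads may be divided among them with error.

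Other genes that were higher included regulators and signalling genes. SMYD2, a lysine methyltransferase, had 4.23 and 4.15 TPM in WT and 10.54 and 11.39 in EZH2-/- cells, 4.06 and 3.83 in EZH1-/- cells and 35.27 and 32.1 in EZH2-/-/EZH1-/- cells. VENTX, a homeobox factor, had 3.49 and 3.25, then 10.03 and 10.08 TPM, and SP8, a zinc-finger factor of limb and brain, 2.55 and 3.62, then 19.86 and 10.14. PTH1R, the parathyroid hormone receptor, had 0.6 and 0.36, then 2.3 and 3.12 TPM. TFAP2C, a factor of trophoblast and germ cells on chromosome 20, had 3.12 and 2.69, then 6.53 and 8.38 TPM, and EZH1-/- cells had 7.54 and 9.34. EIF3CL had the largest gap of all genes (15.55 and 3.32, then 153.68 and 188.35 TPM), but it is a near-identical copy of EIF3C, and EZH1-/- cells had 129.51 and 184.79 TPM. Non-coding RP11-536I6.2 (2.15 and 2.41, then 30.71 and 20.34) was likewise high in EZH1-/- cells, at 58.19 and 57.92 TPM, whereas CTD-2636A23.2 (1.03 and 0.65, then 13.78 and 11.01) had 4.49 and 2.55.

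Among genes that were lower, RAB17 (chr2:237574322-237601614, - strand), a GTPase of polarised membrane traffic, had 68.06 and 72.5 TPM in WT and 22.67 and 21.94 in EZH2-/- cells (3.15-fold lower mean TPM). The difference was -1.61 ± 0.202 (limma, adjusted p = 0.331). SEZ6, a membrane protein of neurons, had 11.89 and 12.96 TPM in WT and 2.56 and 2.87 in EZH2-/- cells, and in EZH2-/-/EZH1-/- cells it was lower still, at 0.34 and 0.12. IFITM2, an antiviral membrane protein with close paralogues that may share its reads, had 492.4 and 414.68, then 151.94 and 179.04 TPM. The samples of each line were close for these 3 genes. CUZD1 (9.38 and 27, then 2.52 and 1.61), the germ cell gene FAM71F1 (12.04 and 9.98, then 2.14 and 2.26) and SPP2, a secreted phosphoprotein (5.64 and 5.41, then 1.28 and 1.37), were also lower. LHX4, a LIM homeobox factor, had 2.22 and 4.36 TPM in WT and 0.42 and 0.52 in EZH2-/- cells, and was thus a developmental factor expressed in WT cells that lay lower. The non-coding RP11-677O4.6 and RP11-173P15.5 had 3.34 and 3.16, and 5.08 and 2.36 TPM in WT and were listed at 0 in all samples of the 5 knockout lines.

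A direct comparison with EZH1-/- H1 cells shows where the EZH2 knockout differs from the other single knockout. In the fit of the 6 samples of WT, EZH1-/- and EZH2-/- cells, 18 of 15841 genes (0.114%) were higher and 71 (0.448%) lower in EZH2-/- than in EZH1-/- cells at an adjusted p of at most 5% (limma, Benjamini-Hochberg). NRGN was among the higher genes (difference 2.99, adjusted p = 0.0143), as were COMMD3 (1.86, adjusted p = 0.0422) and COMMD3-BMI1 (2.51, adjusted p = 0.0422). VSIG2 (1.69), AC009022.1 (3.44) and AC005786.7 (2.08) were also called, but in this fit they reached 1 TPM only in the EZH2-/- samples. They entered the test through the group where they were high, so no p is given for them. NRGN also passed the filter with these samples, since its only other value above 1 was 1.15 TPM in a WT sample. BMI1 missed the limit at 2.45 (adjusted p = 0.0747). SEZ6 was lower (-1.73, adjusted p = 0.0337), and RAB17 was lower by 3.27 on the log2 scale (adjusted p = 0.00044), with 220.34 and 226.82 TPM in EZH1-/- cells. BMP7 (0.77, adjusted p = 0.188), SMYD2 (1.27, adjusted p = 0.0657) and the metallothionein MT1E (1.41, adjusted p = 0.645) were not separated from EZH1-/- cells by the test. Without EZH2-/- replicate 2 the fit called 1643 higher and 1480 lower, without EZH2-/- replicate 1 710 and 2124, without EZH1-/- replicate 1 2 and 2, and without EZH1-/- replicate 2 0 and 0 (349 and 625 at an unadjusted p under 0.05), so the size of this list rests on single libraries.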

How the data were processed

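RNA-seq of 19 samples was deposited, and the 12 of WT H1 and 5 knockout lines were read; the 7 of an inducible EED line were not used here. The authors made TruSeq libraries, used Bowtie2 and RSEM with transcripts of GRCh38, and the deposited unit is TPM per gene; the processing notes also name hg19. The study's test on counts could not be run on TPM and limma 3.58.1 (R 4.3.3) replaced it. It was run on log2(TPM + 1) with the trend and robust options, for genes with at least 1 TPM in 2 samples of the fit. Counts of genes whose samples did not overlap have no p. Means, SE and n = 2 are per line. With TPM, precision rests on the replicates alone. Replicate numbers name samples in accession order. Places and types are from GENCODE 44 (97.3% of genes), starts from RefSeq. Named genes are PRC2 subunits, the 12 largest gaps each way, up to 6 plus the most abundant member per list, 10 genes switched on and 10 off, and 8 of the list of induced genes. Other genes (SMYD2, VENTX, SP8, PTH1R, IFITM2, SOX2, NANOG, ID2, ID3, DPPA3, DPPA5, KLF17, PAX6, PIP4K2A, TBRG1, MSANTD2, SIAE, SPA17, SPAG6, COMMD3-BMI1, IRX3, FOXL1, TBX1, ODC1 and those in the closing section) were picked once their values were known. The comparison and its gene lists were chosen with earlier results of these data known. Python 3.11.15, numpy 2.4.6, pandas 2.3.3 and matplotlib 3.10.9 were used. The limma step was tested on simulated data. Alternatives were pseudocount 0.1, other filters, median-ratio scaling, fits of 6 and 12 samples and leaving out each sample.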

Additional observations from a re-analysis of the deposited data

Results flagged for a closer look

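Between EZH2-/- and EZH1-/- H1 cells, 2 genes passed both an adjusted p of at most 1% and a fold change of 3 (limma, fit of 6 samples). Effects of the knockouts and differences between clones or cultures cannot be told apart in these values. RAB17, a GTPase of membrane traffic, was at 68.06 and 72.5 TPM in WT, 22.67 and 21.94 in EZH2-/- and 220.34 and 226.82 in EZH1-/- cells, a difference of -3.269 between EZH2-/- and EZH1-/- cells (adjusted p = 0.00044). All EZH2-/- samples were thus below WT and all EZH1-/- samples above it. EZH2-/-/EZH1-/- cells had 155.69 and 113.89 TPM. ODC1, the first enzyme of polyamine synthesis, was at 117.74 and 120.28 TPM in WT and 136.86 and 139.33 in EZH2-/- cells but at 22.64 and 22.47 in EZH1-/- cells, a difference of 2.562 (adjusted p = 0.00123). ODC1 stayed near its WT level in EZH2-/- cells, and in EZH2-/-/EZH1-/- cells it had 141.34 and 178.79 TPM.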

How the results depend on the processing

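No paired analysis was possible because the sample titles of the 2 lines share no replicate number, and numbers given in deposition order tie the samples to no batch, day or culture. For EZH2-/- against WT cells, a pseudocount of 0.1, other filters, median-ratio scaling and plain eBayes left 0 genes at an adjusted p of 5%. The fit of 6 samples called 1 gene higher and 1 lower, and the fit of 12 samples 6 and 6. Leaving out 1 sample leaves 1 of a line, assumed to vary like the other line, and called 11 to 776 higher and 1 to 2381 lower (at 1% and 3-fold, 7 to 29 and 0 to 85), with the most calls on replicate 2 of EZH2-/- alone. Against EZH1-/- cells, a pseudocount of 0.1 called 9 higher and 32 lower, leaving out a sample 0 to 1643 and 0 to 2124. At 1% and 3-fold, the fit of 12 samples called 4 and 12, leaving out a sample 0 to 45 and 0 to 182. For EZH2-/-/EZH1-/- against EZH2-/- cells, the fit of 12 samples called 5384 higher and 3069 lower (1% and 3-fold: 2315 and 925), and leaving out a sample 1909 to 2521 and 645 to 2178 (lower at 1% and 3-fold: 348 to 1253). Genes separated by a gap of 1 numbered 125 higher and 129 lower with a pseudocount of 0.1, 31 and 22 at 1 TPM in all 4 samples, 2155 and 3497 with any gap, and 110 to 185 and 77 to 604 without a sample. Genes switched on and off numbered 11 and 5 with limits of 0.5 and 2 TPM, 69 and 101 among protein-coding genes, and 265 to 540 and 309 to 666 without a sample. After median-ratio scaling they were 173 and 150, so the larger count changed sides. Of the induced genes, 108 were higher and 117 lower with a limit of 2 TPM (765 genes), 14 and 19 with 20 TPM (88 genes), and 79 to 132 and 90 to 126 without a sample. Of the silent developmental factors, 22 and 4 had a gap of 0.1, and 48 to 73 were higher and 24 to 37 lower without a sample. The last choices on these factors, on protein-coding genes and on chromosome 20 were made after seeing the data. Fewer samples overlap less easily and larger lists hold more genes; other causes were not tested. Of 27 single genes, 178 values under settings that kept all samples had the direction of the main value, and 10 of the genes passed 5% in at least 1 of those settings. Read depth is unknown, and at low TPM a gain of a fraction of 1 TPM cannot be set against counting error.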

Other observations

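EZH2-/- replicate 2 had genes far above the other 3 samples that were not on chromosome 20. HERC3, a ubiquitin ligase, had 0.92 and 1.38 TPM in WT, 3.24 in EZH2-/- replicate 1 and 43.12 in replicate 2. Its level also differed between samples of other lines, with 59.3 and 48.99 in EZH1-/-, 60.66 and 2.08 in EZH2-/-/EZH1-/- and 7.04 and 89.18 in SUZ12-/- cells. RBM46, an RNA-binding protein of germ cells, had 0.81, 1.08 and 0.74 TPM in the other 3 samples and 15.78 in replicate 2, and at most 1.49 in the other lines. LINC01551 had 27.79 TPM there beside 0, 3.1 and 0.05.

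Several of these genes were at similar levels in EZH1-/- cells. DPPA5, a marker of pluripotent cells, had 1.36, 1.77 and 1.61 TPM in WT and EZH2-/- replicate 1, 7.59 in replicate 2 and 5.56 and 5.22 in EZH1-/- cells. IBA57, which assembles iron-sulfur clusters, had 1.93, 2.66 and 3.35, then 12.12, and 7.82 and 7.08 TPM in EZH1-/- cells, and the non-coding ZNF528-AS1 2.68, 2.03 and 2.13, then 11.46, and 14.85 and 21.34. In all, 97 genes lay above the other 3 samples by at least 1 on the log2 scale in replicate 2, 21 of them among the 402 tested genes of chromosome 20, and 373 lay below. Replicate 1 had 66 such genes above, 0 of them on chromosome 20, and 48 below.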
